A study of Mus musculus with 12 samples.

Results

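The Hox cluster genes are the genes whose platform symbol is Hoxa, Hoxb, Hoxc or Hoxd followed by a number alone. Of the 39 protein-coding genes of this kind in the RefSeq gene table, 33 had a probe set that carries a single gene symbol, out of 18193 genes measured in all. Where a gene had several such probe sets, the one with the largest 12-array mean stood for it. The other genes were not analysed here by themselves, although probe sets shared by Hoxb8 and Hoxb7 and by Hoxd4 and Hoxd3 are described below. The 33 genes comprise 9 of HoxA, 9 of HoxB, 7 of HoxC and 8 of HoxD.

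Transcripts were measured on Affymetrix expression arrays in TBV2 cells, a wild-type embryonic stem cell line of the 129/SvP mouse strain. The proline-treated cultures, called PiCs in the labels, were kept for 5 days with 500 µM L-proline, sparsely seeded on gelatin and free of feeder cells, in medium that contained leukemia inhibitory factor (LIF) and lacked added non-essential amino acids. The control cultures (ESCs) were kept in the same way for 5 days without added proline. There are 2 biological replicates per group, with 3 arrays for each, and all of them come from this single cell line. The 3 arrays of a biological replicate were averaged, because the labels do not say what their letters stand for, and nothing in the labels says whether the biological replicates were separate cultures. The p-values therefore cover the spread between these 4 means alone, some of which may be technical.

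Hox genes encode homeodomain transcription factors that give cells along the head-to-tail axis their positional identity. They lie in 4 clusters, and their order within a cluster follows the order in which they are switched on in the embryo, from the low-numbered genes of the anterior body to the high-numbered genes of the trunk, tail and distal limb. In undifferentiated mouse embryonic stem cells the clusters are a classical target of Polycomb repression, and retinoic acid is a classical inducer of their 3′ genes.

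All 10 markers of mouse embryonic stem cells chosen for this comparison, among them Pou5f1 and Nanog, had means above the 40th percentile of probe set means. Their mean log2 signal was 11.92 and 11.96 in the proline replicates and 12.45 and 12.51 in the control replicates. Esrrb, Zfp42 and Fgf4 of this list fell after proline at an adjusted p under 0.05 in limma, where 1.34% of all genes fell. The other 7 did not pass. Among these, Lin28a differed in the other direction, by 0.67 ± 0.11 (adjusted p = 0.0530 in limma).

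Promoter sequence was at hand for 19 of the 33 genes, from RefSeq (build GRCm38.p6), as 300 bases that run from 250 before to 50 after the transcription start. Shown here are the 3 of these 19 genes with the largest positive measured differences (Hoxd1, Hoxd9 and Hoxb1) and that with the largest negative difference (Hoxa7). Hoxc13, Hoxb13 and Hoxb9, with larger negative differences, had no promoter sequence at hand. Capitals mark CpG dinucleotides, the sites of DNA methylation, and each sequence reads 5′ to 3′ on the gene's strand.
Hoxd1 promoter (chr2:74762730-74763029, plus strand): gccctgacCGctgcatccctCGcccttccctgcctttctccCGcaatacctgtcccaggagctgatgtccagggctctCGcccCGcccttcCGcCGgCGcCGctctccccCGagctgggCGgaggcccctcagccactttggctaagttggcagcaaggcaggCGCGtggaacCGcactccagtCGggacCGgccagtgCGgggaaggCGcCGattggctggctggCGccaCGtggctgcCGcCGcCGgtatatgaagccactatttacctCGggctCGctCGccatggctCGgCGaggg
Hoxd9 promoter (chr2:74697513-74697812, plus strand): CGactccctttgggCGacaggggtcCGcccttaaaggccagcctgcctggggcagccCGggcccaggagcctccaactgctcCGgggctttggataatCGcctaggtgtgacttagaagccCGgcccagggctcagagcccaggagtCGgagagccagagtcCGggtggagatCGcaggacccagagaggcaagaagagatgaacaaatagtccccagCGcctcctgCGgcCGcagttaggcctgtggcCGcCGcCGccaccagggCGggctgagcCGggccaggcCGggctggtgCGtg
Hoxb1 promoter (chr11:96365508-96365807, plus strand): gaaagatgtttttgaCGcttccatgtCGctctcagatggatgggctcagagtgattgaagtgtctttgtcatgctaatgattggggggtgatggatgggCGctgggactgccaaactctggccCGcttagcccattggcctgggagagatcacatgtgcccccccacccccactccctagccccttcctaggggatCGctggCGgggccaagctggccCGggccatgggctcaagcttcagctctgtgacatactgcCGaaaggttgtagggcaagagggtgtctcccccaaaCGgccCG
Hoxa7 promoter (chr6:52218524-52218823, minus strand): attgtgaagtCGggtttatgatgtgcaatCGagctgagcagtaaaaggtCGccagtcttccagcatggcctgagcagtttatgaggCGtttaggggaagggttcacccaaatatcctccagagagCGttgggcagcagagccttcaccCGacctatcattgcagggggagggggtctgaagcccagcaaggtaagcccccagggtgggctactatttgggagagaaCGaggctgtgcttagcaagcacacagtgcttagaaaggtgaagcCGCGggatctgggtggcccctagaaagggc

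The Hoxd1 promoter held 29 CpG dinucleotides, that of Hoxd9 held 20, that of Hoxb1 held 10 and that of Hoxa7 held 9. Over the 19 Hox promoters the count ran from 4 (Hoxa9 and Hoxd11) to 45 (Hoxa13), with a median of 14, against a median of 7 over 27025 gene promoters of the same length. More CpG than the median promoter was found in 84.2% of the Hox promoters and in 49.1% of all promoters. Of HoxB and HoxC only Hoxb1, Hoxb4 and Hoxc4 had a promoter sequence, so the shares given here describe mainly HoxA and HoxD. The median GC content was 58% in the Hox promoters and 52.7% in all promoters. A TATA box written as TATAAA, searched on both strands, was present in 1 of the 19 Hox promoters, that of Hoxd13 (5.26%, against 14.2% of all). The box CCAAT was present in 11 (57.9%, against 38% of all), and GGGCGG, which itself contains a CpG, in 7 (36.8%, against 35.9% of all). The caudal-type site TTTATG, which shares 5 bases with the reverse strand of TATAAA, was present in 3, those of Hoxa7, Hoxd3 and Hoxd11 (15.8%, against 12.2% of all). These matches describe the letters of the window and are not binding sites.

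The comparison of proline with control asks whether the amino acid changed Hox transcript signals in cells held in LIF. No Hox gene passed an adjusted p of 0.05 in limma, with 0 of 33 higher and 0 of 33 lower, while 4.36% of all 18193 genes passed (3.03% higher and 1.34% lower). At an unadjusted p under 0.05 there were 3 Hox genes, Hoxd1, Hoxb13 and Hoxb9, or 9.09% of the 33, against 22.1% of all genes. Their smallest adjusted p was 0.160, that of Hoxd1. The measured differences (proline minus control, log2) ran from -1.02 for Hoxc13 to 0.91 for Hoxd1, with a median of 0.01, beside a median of -0.03 over all genes. Of the 33 differences, 18 lay above 0 and 24 (72.7%) were smaller than 0.2 in size, against 53.1% over all genes.

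The signals themselves were low. Of the 33 Hox genes, 22 (66.7%) had a mean under the 40th percentile of probe set means, a log2 signal of 5.36, against 29.9% of all genes. In 20 genes all 12 arrays lay under that level, and in 8 all 12 lay above it. The mean signals ran from 2.85 (Hoxa2, a hindbrain gene) to 6.53 (Hoxc9, a gene of the thoracic spinal cord), with a median of 4.75, against 7.01 over all genes. So low a signal may be background, which these values do not resolve, and a difference or interval then describes the signal and not the transcript. In bulk RNA, fewer cells with a transcript and less of it per cell cannot be told apart either. Probes also differ in affinity, so a lower signal of one gene than of another does not show a lower transcript level.

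**Figure D1:**
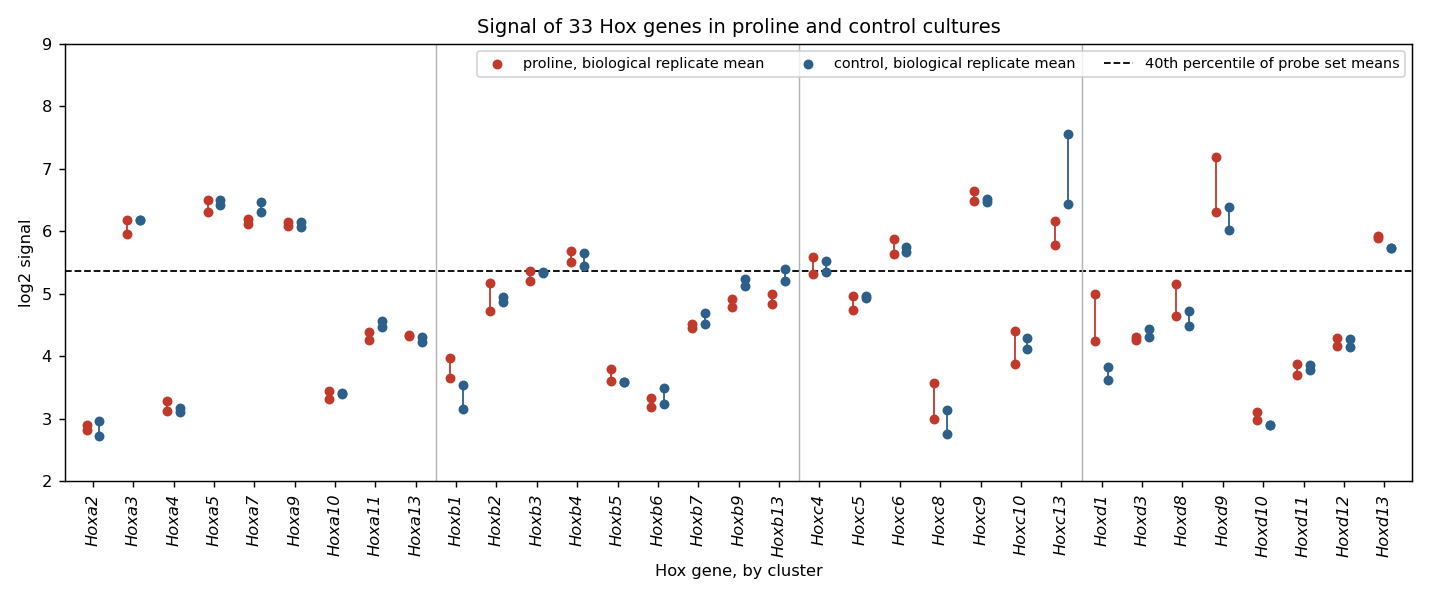
Log2 signal (vertical axis) of 33 Hox genes, grouped by cluster along the horizontal axis. Points are the means of 3 arrays for each of 2 proline (red, left) and 2 control (blue, right) biological replicates, bars join replicates of a group, and the dashed line is the 40th percentile of probe set means (5.36), under which 22 genes lie.

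For the 11 genes above the 40th percentile, that place depended on the probe set in 6. These 6 (Hoxa3, Hoxa5, Hoxa9, Hoxb4, Hoxc6 and Hoxd13) had several probe sets, and in each another probe set of the same gene lay under that level. Hoxa5, a gene of neck vertebrae and lung, had 6.31 and 6.50 in the proline replicates and 6.50 and 6.42 in the control replicates on the probe set used. Its other probe set had 3.45 and 3.52 in the proline replicates and 3.49 and 3.48 in the control replicates. Of all 48 single-symbol Hox probe sets, 36 lay under the 40th percentile. The other 5 genes, Hoxa7, Hoxc4, Hoxc9, Hoxc13 and Hoxd9, had 1 probe set each.

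Among the anterior genes, paralog groups 1 to 4, 10 were measured, 7 with a measured difference above 0 and 3 below it. Hoxd1, the 3′ end gene of the HoxD cluster, had log2 signals from 4.04 to 5.29 with a median of 4.47 on the 6 proline arrays, and from 3.50 to 3.99 with a median of 3.67 on the 6 control arrays. The groups did not overlap, and Hoxd1 was the only one of the 33 genes with this separation, or 3.03%, against 24.6% of all genes. Its replicate means were 5.00 and 4.25 with proline and 3.82 and 3.61 in control, so that proline replicate 1 was the highest and proline replicate 2 lay 0.75 below it. The difference was 0.91 ± 0.28 (moderated SE, n = 2 biological replicates per group; 95% interval 0.17 to 1.65; adjusted p = 0.160 in limma), with all of these signals under the 40th percentile. The difference was 0.53 without proline replicate 1 and 1.28 without proline replicate 2. When the 12 arrays were fitted with the biological replicate as a random effect, Hoxd1 had an adjusted p of 0.0259 in limma, in a fit that called 21.9% of all genes.

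Hoxb1, which specifies a segment of the hindbrain and lies at the 3′ end of HoxB, had replicate means of 3.97 and 3.64 with proline and 3.15 and 3.54 in control. Its proline arrays ran from 3.49 to 4.38 and its control arrays reached up to 3.73, so that the arrays overlapped while the replicate means did not. The difference was 0.46 ± 0.20 (adjusted p = 0.276 in limma). It was 0.27 without control replicate 1 and 0.66 without control replicate 2. Hoxd1 and Hoxb1, which share their paralog number, both had a measured difference above 0, and neither passed the threshold.

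The next genes of the anterior group differed little. Hoxa3, which is needed for the thymus and parathyroid, had 5.96 and 6.18 in the proline replicates and 6.18 and 6.18 in the control replicates, a difference of -0.11 ± 0.13. Hoxb3, a hindbrain gene just under the 40th percentile, differed by -0.06 ± 0.12. Hoxc4 and Hoxb4, just above it, differed by 0.01 ± 0.15 and 0.06 ± 0.14. Hoxb4 is known for its action in blood stem cells. Proline and control arrays overlapped in all 4 of these genes.

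Of the 9 genes of paralog groups 5 to 8, which act in the neck and thorax, 4 had a measured difference above 0 and 5 below it. Hoxa7, a gene of thoracic vertebrae, had 6.11 and 6.20 with proline and 6.47 and 6.31 in control. Its difference of -0.23 ± 0.13 was larger than the difference between replicates of either group, and its adjusted p was 0.374 in limma. Hoxc8, which acts in thoracic vertebrae and motor neurons, had 2.99 and 3.57 with proline and 2.76 and 3.13 in control. Hoxd8, a trunk gene, had 4.64 and 5.16 with proline and 4.49 and 4.72 in control. In Hoxc8 and Hoxd8 replicate 2 was the higher of the pair in both groups, and proline replicate 1 lay under control replicate 2. The difference was 0.34 ± 0.25 in Hoxc8 and 0.29 ± 0.22 in Hoxd8. Without proline replicate 1 it was 0.63 in Hoxc8 and 0.56 in Hoxd8, and without proline replicate 2 it was 0.045 in Hoxc8 and 0.031 in Hoxd8. Hoxa5 differed by -0.06 ± 0.13 and Hoxc6, a gene of the forelimb level of the spinal cord, by 0.05 ± 0.14.

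Of the 14 posterior genes, paralog groups 9 to 13, 7 had a measured difference above 0 and 7 below it. Hoxc13, which controls keratin genes of hair and nail, had the largest difference of all 33. Its signals ran from 5.27 to 6.20 with a median of 6.14 on proline arrays, and from 6.02 to 7.65 with a median of 7.09 on control arrays. The replicate means were 6.16 and 5.78 with proline and 7.55 and 6.43 in control, and the 2 control replicates lay 1.13 apart. The difference of -1.02 ± 0.41 (95% interval -2.09 to 0.05; adjusted p = 0.245 in limma) was thus smaller than the difference between the control replicates. It was -1.58 without control replicate 2 and -0.46 without control replicate 1. Hoxc13 was also the only Hox gene with a measured change of at least 2-fold, or 3.03%, against 6.93% of all genes.

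Hoxb13, known from the tail bud and the prostate, had 5.00 and 4.84 with proline and 5.40 and 5.21 in control, a difference of -0.39 ± 0.14 (adjusted p = 0.205 in limma). Hoxb9, a gene of the thoracic skeleton, had 4.91 and 4.79 with proline and 5.13 and 5.23 in control, a difference of -0.33 ± 0.12 (adjusted p = 0.216 in limma). In both genes each proline replicate mean lay under each control replicate mean, while single arrays overlapped. Within paralog group 13 the signs of the measured differences were mixed: Hoxa13 and Hoxd13 differed by 0.07 ± 0.11 and 0.18 ± 0.11, where Hoxb13 and Hoxc13 had differences below 0.

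Hoxd9, a gene of the lumbar body and limb, had 6.31 and 7.20 with proline and 6.02 and 6.39 in control. Proline replicate 2 stood apart from the other 3 values, and proline replicate 1 lay under control replicate 2. The difference was 0.55 ± 0.33 (95% interval -0.33 to 1.43; adjusted p = 0.440 in limma), and it was 0.99 without proline replicate 1 and 0.11 without proline replicate 2. Hoxd13, a gene of the digits, had 5.90 and 5.93 with proline and 5.73 and 5.73 in control. Its other probe set had 5.78 and 5.17 with proline and 4.96 and 5.07 in control, also with both proline values above both control values. Hoxc9 had 6.49 and 6.64 with proline and 6.47 and 6.51 in control, Hoxa9, known from blood progenitors, differed by 0.01 ± 0.11, and Hoxa11, a gene of kidney and forearm, by -0.19 ± 0.12.

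**Figure D2:**
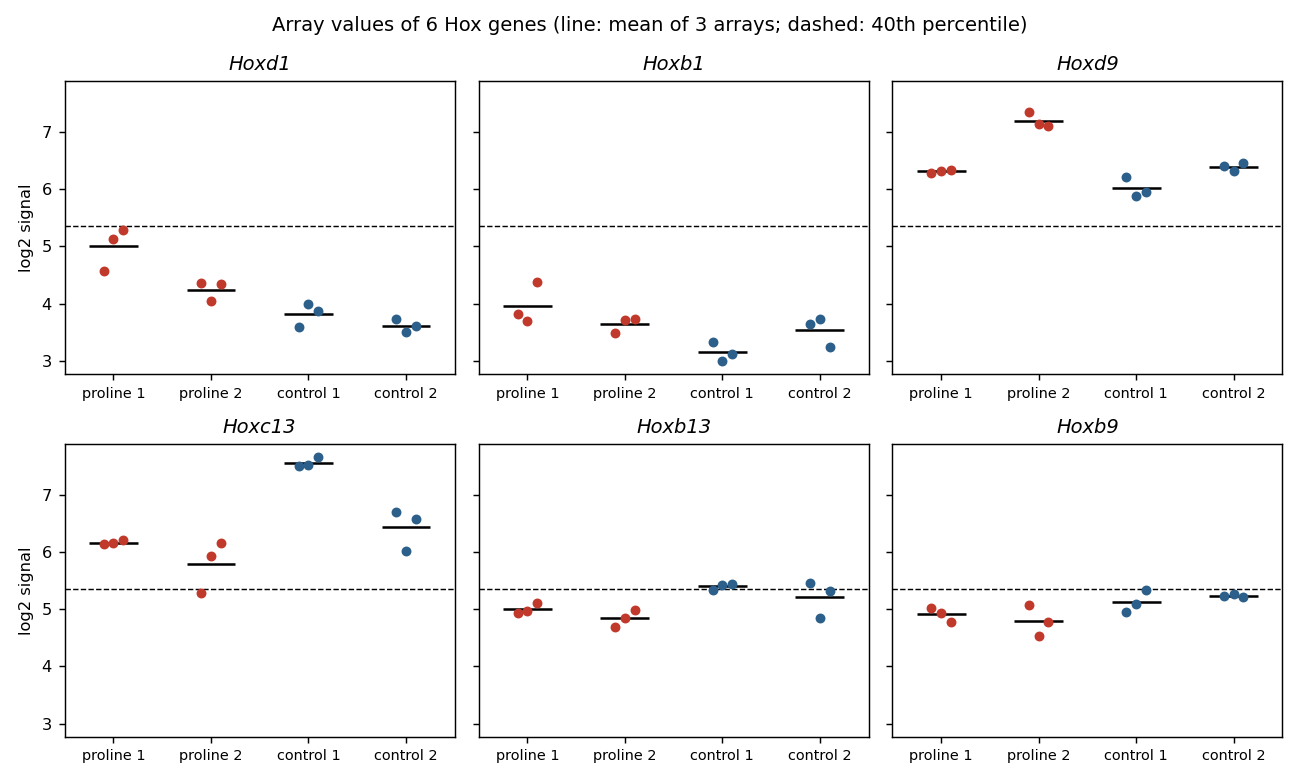
Log2 signal (vertical axes) of 6 Hox genes on each of the 12 arrays, by biological replicate, with proline in red on the left and control in blue on the right. Lines are means of 3 arrays and the dashed line is the 40th percentile (5.36). Only in Hoxd1 do all proline arrays lie above all control arrays, and in Hoxc13 the control replicates lie 1.13 apart.

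Set against the spread between replicates, few members stood out. In 13 of the 33 genes (39.4%) both proline replicate means lay on the same side of both control replicate means, 6 above and 7 below, against 52.7% of all genes. In 8 genes (24.2%) the difference exceeded the difference between replicates within each group, against 39.9% of all genes. These were Hoxd1, Hoxb1, Hoxd10, Hoxd13, Hoxa7, Hoxa11, Hoxb9 and Hoxb13, the first 4 higher and the last 4 lower in their measured values. The median size of the difference was 0.10 for the Hox genes, 0.09 for the 5431 genes under the 40th percentile and 0.18 for all genes. Of the genes under the 40th percentile, 1.14% passed the threshold, against 5.74% of those above it.

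The 95% interval of the difference lay within 2-fold in either direction for 29 of the 33 genes (87.9%), against 78.3% of all genes. For Hoxd1, Hoxd9, Hoxc8 and Hoxc13 it reached beyond 2-fold. The intervals rest on limma's model and 2 biological replicates per group. The smallest two-sided p that an exact permutation test allows for such groups is 0.333.

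**Figure D3:**
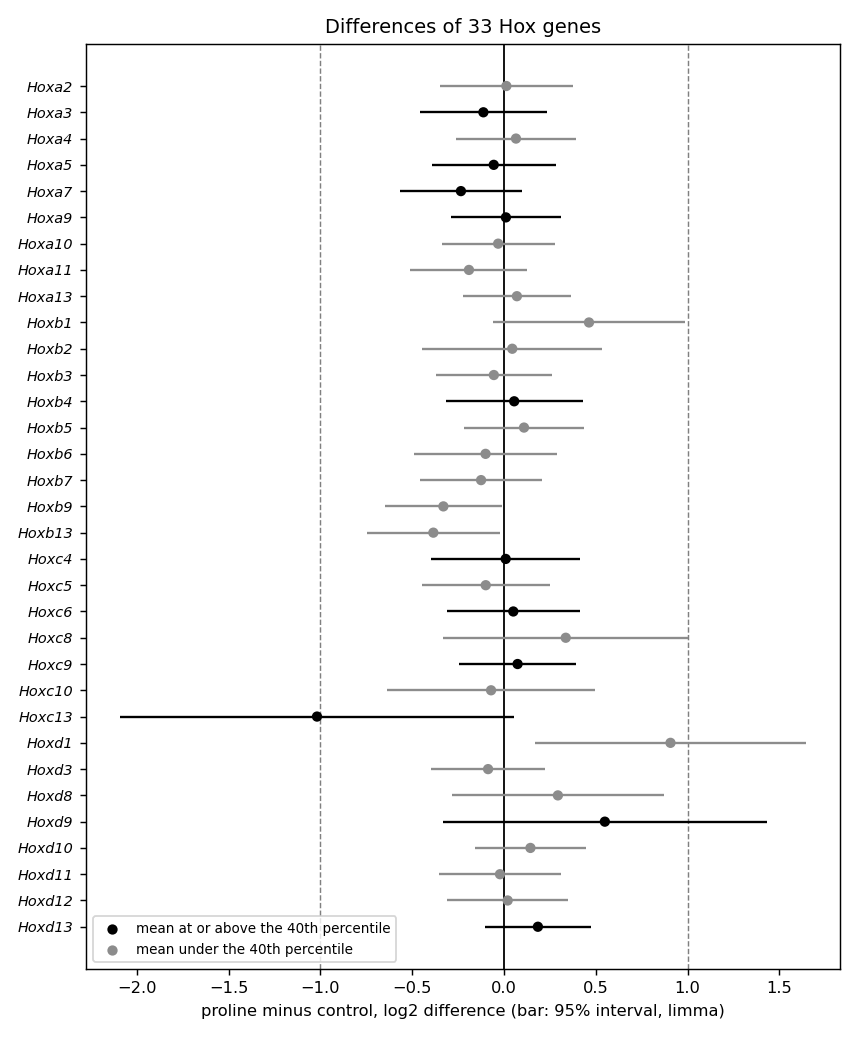
Difference of proline minus control (horizontal axis, log2) for 33 Hox genes, with 95% intervals from limma. Dashed lines mark 2-fold in either direction. Black genes have a mean at or above the 40th percentile and grey genes lie under it, and the intervals of 29 genes stay within the dashed lines.

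By cluster, the median difference was -0.03 in HoxA, -0.06 in HoxB, 0.01 in HoxC and 0.16 in HoxD. In HoxD 6 of 8 genes had a difference above 0, compared with 4 of 9 in HoxA, 4 of 9 in HoxB and 4 of 7 in HoxC. HoxA was the most even cluster, with differences between -0.23 and 0.07. In HoxD the adjacent genes Hoxd8 and Hoxd9 both read higher in proline replicate 2 than in the other 3 replicates, whereas Hoxd1 read highest in proline replicate 1. Medians were 0.03 in paralog groups 1 to 4, -0.06 in groups 5 to 8 and -0.01 in groups 9 to 13, so that no order along the clusters is visible in these medians. The share under the 40th percentile was 7 of 10, 6 of 9 and 9 of 14 in the same order, and it was 5 of 9 in HoxA, 8 of 9 in HoxB, 3 of 7 in HoxC and 6 of 8 in HoxD.

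**Figure D4:**
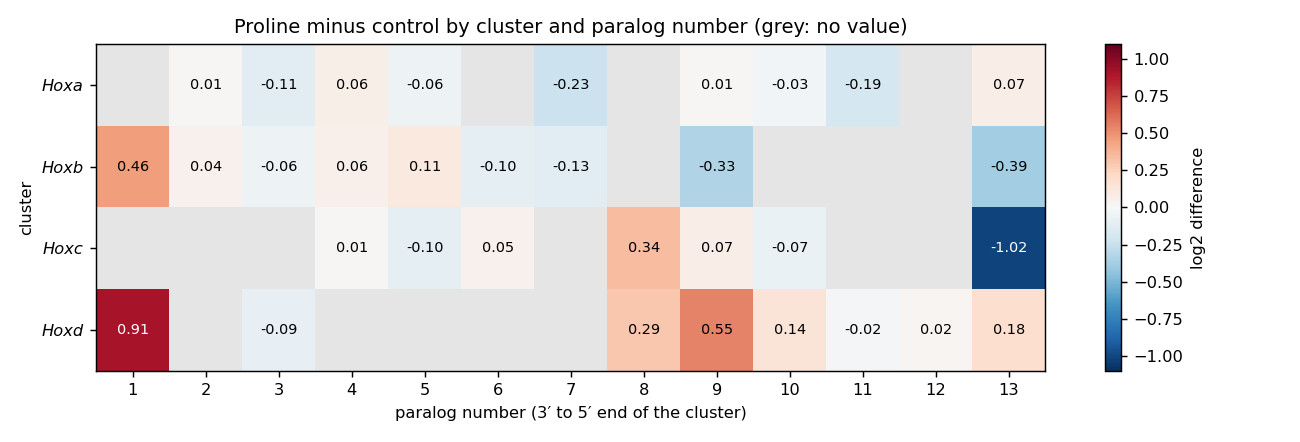
Difference of proline minus control (colour and number, log2) by cluster (rows) and paralog number (columns), with grey where no gene or no value exists. The outermost values are 0.91 for Hoxd1 and -1.02 for Hoxc13, and the 9 HoxA genes lie between -0.23 and 0.07.

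Probe sets that could not be given to a single Hox gene, and those of antisense transcripts, were also near their control values. The probe set shared by Hoxb8 and Hoxb7 had 3.88 and 3.72 with proline and 3.86 and 3.89 in control. The brighter of the pair shared by Hoxd4 and Hoxd3 had 5.74 and 5.41 with proline and 5.54 and 5.52 in control. The brighter probe set of Hoxd3os1, an antisense transcript of the HoxD cluster, had 3.95 and 3.85 with proline and 3.75 and 3.96 in control. Of the 11 Hox genes with several probe sets, all probe sets of a gene shared the sign of the difference in 8.

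Of the cofactors that work with the Hox proteins, 2 of 8 lay under the 40th percentile, against 29.9% of all genes. Of these 8 genes of the TALE family, homeodomain proteins that bind DNA together with Hox proteins, 1 rose, 0 fell and 7 did not pass, with a median difference of 0.38, where 4.36% of all genes passed (3.03% higher and 1.34% lower). Pbx3 rose, with 9.58 and 8.97 in the proline replicates and 7.79 and 7.57 in the control replicates, a difference of 1.60 ± 0.24 (adjusted p = 0.0442 in limma). Both proline values lay above both control values. No gene of this list passed after quantile normalization. Fits without 1 of the 4 biological replicates cannot decide this for Pbx3, because they leave a group with 1 replicate. Pbx2 differed by 0.69 ± 0.13 (adjusted p = 0.0703 in limma) and Meis3 by 0.69 ± 0.21 (adjusted p = 0.161 in limma), while Meis1 read 4.58 and 4.58 with proline and 4.57 and 4.59 in control.

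Of 13 genes listed as ParaHox, caudal or Hox-linked homeobox genes, 1 fell and 12 did not pass, against 4.36% of all genes that passed. Linked here names the list and does not place each gene beside a cluster. Gbx2, a gene of the midbrain-hindbrain boundary, fell, with a difference of -2.52 ± 0.28 (adjusted p = 0.0301 in limma). It had 6.78 and 7.34 with proline and 9.32 and 9.83 in control. The median difference of this list was -0.11. Evx1, which lies at the 5′ end of HoxA and marks the primitive streak, had 5.91 and 6.78 with proline and 4.90 and 5.15 in control, a difference of 1.32 ± 0.32 (adjusted p = 0.103 in limma). Its HoxA neighbour Hoxa13 had 4.35 and 4.32 with proline and 4.22 and 4.30 in control. Meox1, a gene of the somites, differed by -0.54 ± 0.16 (adjusted p = 0.158 in limma). Cdx2, a caudal factor that activates trunk Hox genes, had 6.25 and 6.38 with proline and 5.31 and 6.02 in control, and its difference of 0.65 ± 0.26 did not pass (adjusted p = 0.249 in limma). Cdx1 and Cdx4 differed by -0.27 ± 0.13 and 0.10 ± 0.16, both under the 40th percentile.

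Of 17 retinoic acid pathway genes, 1 rose, 0 fell and 16 did not pass, where 4.36% of all genes passed. The median difference was 0.02, and 7 of the 17 had an unadjusted p under 0.05, against 22.1% of all genes. The gene that rose was Crabp2, which carries retinoic acid to its nuclear receptors, with 8.44 and 8.69 in the proline replicates and 6.55 and 7.04 in the control replicates, a difference of 1.77 ± 0.21 (adjusted p = 0.0339 in limma). Dhrs3, which lowers retinaldehyde, differed by 0.95 ± 0.18 (adjusted p = 0.0702 in limma), and Crabp1 by -1.02 ± 0.25 (adjusted p = 0.110 in limma). Cyp26a1, which degrades retinoic acid and is one of its target genes, had 6.70 and 8.76 with proline and 5.70 and 6.05 in control. The 2 proline replicates of Cyp26a1 lay further apart than its difference of 1.86 ± 0.70. Stra8, a germ cell gene that retinoic acid induces, had 6.68 and 7.08 with proline and 9.64 and 7.90 in control, a difference of -1.89 ± 0.60 (adjusted p = 0.166 in limma). Among the retinoic acid receptors, Rarg differed by -0.88 ± 0.27 (adjusted p = 0.163 in limma) and Rara by -0.42 ± 0.16 (adjusted p = 0.218 in limma). In Stra8, Rarg, Rara and Crabp1 all proline arrays lay under all control arrays. In Crabp2, Dhrs3, Cyp26a1, Rxrg and Rdh10 they all lay above them. Of these genes only Crabp2 passed, and 24.6% of all genes had such a separation in either direction.

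Polycomb and trithorax genes, the repressors and activators of Hox chromatin, held 33 measured members, all above the 40th percentile, and 0 passed in limma, against 4.36% of all genes, while 10 of the 33 had an unadjusted p under 0.05, against 22.1% of all genes. Their median difference was -0.06. Eed, a core subunit of Polycomb complex PRC2, had 11.55 and 11.36 with proline and 12.20 and 12.25 in control (adjusted p = 0.0521 in limma). Phc2, a subunit of PRC1, had 9.32 and 9.59 with proline and 8.75 and 8.67 in control (adjusted p = 0.0696 in limma). Rbbp5, a subunit of trithorax-type methyltransferases, had 10.50 and 10.37 with proline and 11.23 and 11.02 in control (adjusted p = 0.0715 in limma).

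Of 24 non-Hox genes beside the clusters, 0 passed in limma, against 4.36% of all genes, while 5 of the 24 had an unadjusted p under 0.05, against 22.1% of all genes. Their median difference was -0.13, and 3 of them lay under the 40th percentile. Skap2, next to HoxA, had 9.50 and 9.63 with proline and 10.17 and 10.13 in control (adjusted p = 0.0736 in limma). Calcoco2 and Atp5g1, on the HoxB side, differed by -0.86 ± 0.16 and -0.65 ± 0.13, and both missed the threshold.

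**Figure D5:**
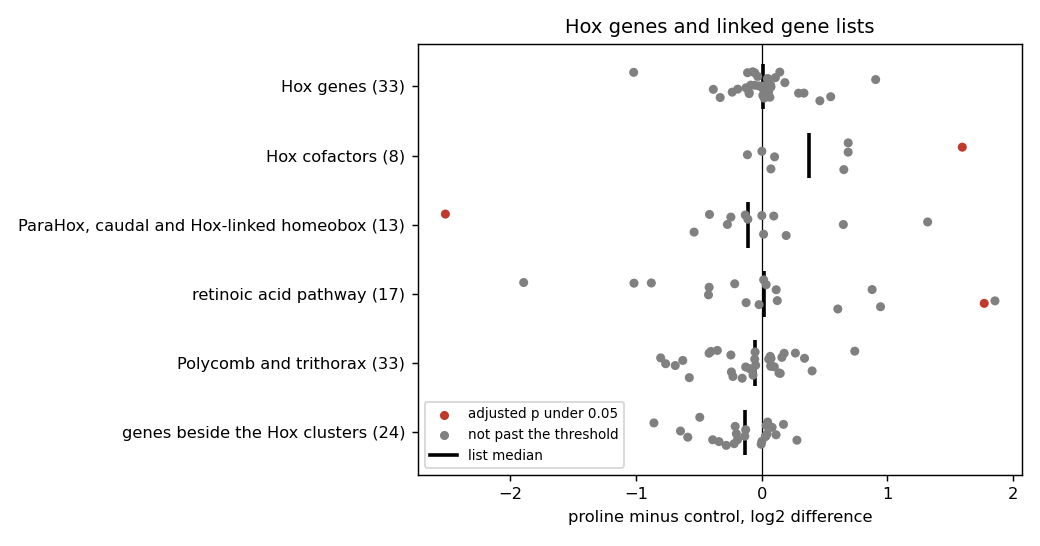
Difference of proline minus control (horizontal axis, log2) of each gene in the Hox set and in 5 linked gene lists, with the number of genes in brackets. Red points passed an adjusted p of 0.05 in limma and bars are list medians. The 3 red points are Pbx3, Gbx2 and Crabp2, and no Hox gene is among them.

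Markers of cells that express Hox genes or could accompany the cultures were counted in the same fit, in which 4.36% of all genes passed (3.03% higher and 1.34% lower). Of 16 fibroblast and feeder cell markers, 1 rose (Mmp2) and 15 did not pass, with a mean list signal of 5.38 and 5.85 in the proline replicates and 5.79 and 5.42 in the control replicates. Of 11 markers of posterior and presomitic mesoderm, 1 fell (Tcf15, 9.02 and 9.21 with proline, 10.38 and 10.66 in control) and 10 did not pass, with mean signals of 5.91 and 5.99 with proline and 5.84 and 5.96 in control. Dll3, among those that did not pass, had 8.62 and 8.87 with proline and 6.35 and 7.37 in control (adjusted p = 0.0676 in limma). Another listed gene, T, was not matched to a measured gene. Neural progenitor markers had 3 increases among 7 measured (Zfp521, Nes and Fabp7), with mean signals of 5.73 and 5.56 with proline and 4.74 and 4.95 in control. Trophoblast markers had 1 increase among 10 (Eomes). The other 9 did not pass and differed in both directions, among them Gata3 by 0.86, Tfap2c by -0.69 and Ascl2 by -0.59. Extraembryonic endoderm markers had 0 among 8 in limma, where 1 had an unadjusted p under 0.05. The part of any such cells in the Hox values was not tested.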

How the data were processed

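The series holds 12 Affymetrix arrays of TBV2 cells. Its deposited table, normalized by the authors, gives a log2 signal for each of 45101 probe sets. MAS5 and RMA are named per the submitters' processing notes, with no version and without saying which made the table. Values ran from 2.10 to 14.8 and array medians from 5.99 to 6.03. Detection calls were not used here.

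Gene names came from the platform's annotation, and a check of their gene IDs against RefSeq (GRCm38.p6) changed 0 symbols. A single symbol belonged to 34945 probe sets. The 3 arrays of a biological replicate were averaged, and limma 3.58.1 (R 4.3.3) compared the 2 proline with the 2 control means (lmFit, eBayes, two-sided, no covariate, 2 residual and 2.60 prior degrees of freedom), with Benjamini-Hochberg adjustment over 18193 genes and a threshold of 0.05. No filter on low signals was applied. The fit was tested on simulated data. For genes with several promoters, the start furthest upstream was used.

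The members and lists were chosen with earlier results of these data known. Named Hox genes are the 8 with the smallest p, the 8 with the highest mean, the 5 largest differences in each direction, the highest of each cluster, and 3 on each side of the 40th percentile. Hoxa2, Hoxa13, Hoxd3, Hoxd10 and Hoxd11 were named after their values were seen. In the linked lists, genes past the threshold and the 3 with the smallest p are named, and others were chosen after their values were seen. Lin28a, Dll3, Gata3, Tfap2c, Ascl2, Pax6, Sox1, Olig2 and Neurog2 of the marker lists were also named after their values were seen. Alternatives covered normalization, filtering, the probe set, the unit tested, a replicate block, an intensity trend and each replicate left out. Plots were drawn with matplotlib 3.10.9.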

Additional observations from a re-analysis of the deposited data

Results flagged for a closer look

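In 4 of the 38 sets of 6 arrays examined for the named Hox genes, a single array stood apart from the other 5 of its group by more than the 95% limit of Dixon's test. Chance alone does this in about 1 of 20 sets, and the 6 arrays of a group are 2 biological replicates of 3 arrays and so are not independent. For Hoxc13, an array of proline replicate 2 read 5.27, with the next at 5.92. For Hoxb1, an array of proline replicate 1 read 4.38, with the next at 3.82. For Hoxa11, an array of proline replicate 2 read 4.03, with the next at 4.33. For Hoxb13, an array of control replicate 2 read 4.85, with the next at 5.32.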

How the results depend on the processing

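No Hox gene passed after quantile normalization, median centring, an intensity trend, the median over probe sets, or each probe set by itself. Leaving out genes under the 40th percentile kept 11 of the 33 Hox genes, of which 0 passed. Hoxd1, Hoxb13 and Hoxb9 were not among these 11, so that fit cannot speak to them. With the biological replicate as a random effect 1 of the 33 Hox genes passed (Hoxd1). With the 12 arrays as independent samples 6 did (Hoxd1, Hoxb1 and Hoxd9 higher, Hoxc13, Hoxb13 and Hoxb9 lower). Over all genes these fits called 3987 and 6804 genes, the median over probe sets 351, and each probe set by itself 45. Leaving out any biological replicate gave 0 calls over all genes, while 2766 to 3676 genes had an unadjusted p under 0.05 in limma. The labels number replicates 1 and 2 in both groups without saying that they pair, and the difference of replicate 2 minus replicate 1 in proline correlated across genes with that in control (r = 0.338). With the replicate block, 2039 genes and 1 Hox gene (Hoxd1, adjusted p = 0.0442 in limma) passed, with 3 cofactors, 2 ParaHox and linked homeobox genes, 3 retinoic acid genes, 4 Polycomb and trithorax genes and 2 genes beside the clusters. In the same order the random effect gave 4, 2, 8, 11 and 4, and the independent arrays 4, 5, 10, 14 and 9. The intensity trend gave 1 Polycomb and trithorax gene and 1 gene beside the clusters, and quantile normalization 0 cofactors. Without a replicate, cofactors, ParaHox and linked genes, and retinoic acid genes each had 0 calls. The causes were not tested. Differences near 0 turned sign when single biological replicates were left out, where Hoxa5 ran from -0.151 to 0.0388, Hoxa9 from -0.0273 to 0.0475, Hoxb3 from -0.13 to 0.0181, Hoxb4 from -0.0473 to 0.158, Hoxc4 from -0.131 to 0.148, Hoxc6 from -0.0711 to 0.172 and Hoxc9 from -0.000624 to 0.148. The number under the percentile was 16 at the 30th, 26 at the 50th, 25 over single-symbol probe sets, 20 by the highest array and 26 by the median over probe sets. There were 2 biological replicates per group, and whether the low signals are background was not tested.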
